A study of Mus musculus with 6 samples.

Results

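The small intestine of suckling mice was described from the 3 libraries labelled wild type, out of 6 libraries in the series, with no contrast against the other genotype. The mice were of strain C57BL/6 and were sampled at postnatal day 14, and the labels name no treatment, sex or stretch of intestine. The mean of the 3 wild type libraries was taken for each gene symbol, and all 24452 symbols were ranked by it. The deposited values are whole-number read counts that had been scaled between libraries, called normalised counts here. The labels do not say whether each library came from a separate animal, so the spread between libraries may be partly technical. One group was described, so no test between groups was made.

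In the suckling period the small intestine digests milk, which is rich in fat and lactose. Its absorptive cells, the enterocytes, hydrolyse lactose with the brush border enzyme lactase, rebuild absorbed fat into triglyceride and export it in chylomicrons, lipoprotein particles coated with apolipoproteins. In the distal part of the suckling intestine, enterocytes also take up whole milk proteins and degrade them in large lysosomes, and at weaning sucrase-isomaltase and other enzymes of the adult diet replace this programme.

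The tissue label was checked against defining markers. Apoa4, the chylomicron apolipoprotein A-IV, had 1076986, 1302781 and 1029973 normalised counts in wild type 1, 2 and 3. Lct, which encodes lactase, had 47541, 49910 and 46808, and Fabp1, the liver-type fatty acid binding protein that enterocytes also make, had 31377, 28338 and 24224. Fabp2, the intestinal fatty acid binding protein, had 28477, 26640 and 21142, and Vil1, the microvillus protein villin, had 18276, 16362 and 17759. Every library was thus high in all 5 enterocyte markers. Alb, which encodes serum albumin of the liver, had 6, 2 and 3, and the fat cell marker Adipoq was listed at 0 in every library. Not all markers of other organs were so low. The liver marker Ttr, the pancreas markers Cela1, Cpa1 and Prss2 and the stomach marker Gkn1 were well above 0 in some libraries, with values given further on.

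Library totals were 13746946, 13641468 and 14094100 normalised counts, from an estimated 16187029, 15264803 and 12550796 reads in wild type 1, 2 and 3. At these depths counting error alone gives a coefficient of variation (CV, the SD as a percentage of the mean) of 9.22 to 10.6% at 100 normalised counts and of 2.91 to 3.35% at 1000. The 3 libraries were not alike. Wild type 3 stood apart: it differed at least 2-fold from wild type 1 in 500 and from wild type 2 in 404 of the 10700 symbols with a mean of at least 100, while wild type 1 and 2 differed so in 67. Across symbols, Pearson's r of log2(normalised count + 1) was 0.983 for wild type 1 and 2, 0.897 for 1 and 3 and 0.928 for 2 and 3, with symbols that are not independent of each other. Xist, the RNA that silences an X chromosome in female cells, had 19, 19 and 6551 normalised counts, and Ddx3y, a gene of the Y chromosome, had 303, 428 and 0. Wild type 3 thus also differed from wild type 1 and 2 in the transcripts that mark sex, and its differences from both in other genes cannot be told apart from sex by these 3 libraries. Wild type 1 held more pancreatic transcripts than wild type 2 and 3. Wild type 1 and 2 held transcripts of a stomach list, some of them also made in the duodenum, that wild type 3 nearly lacked. The values are given further on.

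A few transcripts filled much of each library. Apoa4 alone held 7.834%, 9.550% and 7.308% of the total normalised count in wild type 1, 2 and 3, or 8.231% ± 1.17 (SD, n = 3). With Apoa1, the main apolipoprotein of high density lipoprotein, the leading pair held 9.980% ± 1.06 (SD, n = 3). The 10 most abundant symbols held 13.49% ± 1.11, the 100 most abundant 26.30% ± 0.994 and the 1000 most abundant 54.73% ± 0.538 (SD, n = 3 each). In the mean over libraries, 3 symbols made up 10% of the total, 761 made up 50% and 5786 made up 90%. At the low end, 17546 symbols had a mean of at least 1, 14679 of at least 10 and 10700 of at least 100, and 5619 were listed at 0 in all 3 libraries. Among olfactory receptor symbols, which serve the sense of smell, 1078 of 1125 were listed at 0 throughout, and among vomeronasal receptor symbols 327 of 338. Protein coding genes held 98.48%, 98.58% and 98.51% of the totals.

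**Figure D1:**
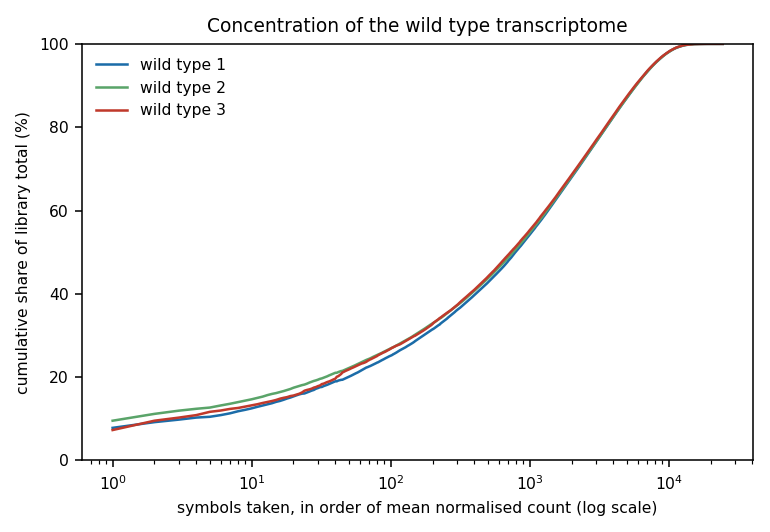
Cumulative share of each library's total normalised count (y axis, percent) against the number of symbols taken in order of mean normalised count (x axis, log scale), with 1 line per wild type library. The lines start at 7.834%, 9.550% and 7.308% for Apoa4 alone and lie close together from 1000 symbols on, where they stand at 54.20%, 54.71% and 55.27%.

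The most abundant symbols were led by apolipoproteins and a receptor for antibodies. Apoa1 had 188288, 223401 and 315894 normalised counts in wild type 1, 2 and 3. Fcgrt, the neonatal Fc receptor that carries maternal antibodies from milk across the epithelium, had 83845, 105704 and 105247. Gpx3, a secreted glutathione peroxidase, had 25504, 39321 and 110592. Apoa1 and Gpx3 were both lowest in wild type 1 and highest in wild type 3, and Fcgrt was lowest in wild type 1. Alpi, the intestinal alkaline phosphatase, had 47470, 42630 and 43922, and Rbp2, the retinol carrier of enterocytes, had 50893, 45377 and 35010. Sepp1, the selenium transport protein selenoprotein P, had 37195, 38074 and 33430. None of these 3 differed 2 times between libraries, and Rbp2 and Sepp1 were lowest in wild type 3. Of the 100 most abundant symbols, 97 were protein coding and 75 stood in at least 1 gene list. By function, 16 of the 100 were in lists of lipid handling, 15 of protein digestion and uptake and 12 of the cell surface. Lists of basic machinery had 10, of intestinal region 8 and of other cells 7, while none was in a list of cell renewal. The lists cover 1195 of the 24452 symbols, differ in size and were chosen with earlier results of these data known. These counts therefore partly reflect the choice of lists. Neat1, a long non-coding RNA of nuclear paraspeckles, was among the 30 most abundant with 22610, 25688 and 35178. So was Rn45s, the ribosomal RNA precursor, at 39974, 19344 and 20314, or 0.291%, 0.142% and 0.144% of the totals in libraries made from polyA RNA.

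**Figure D2:**
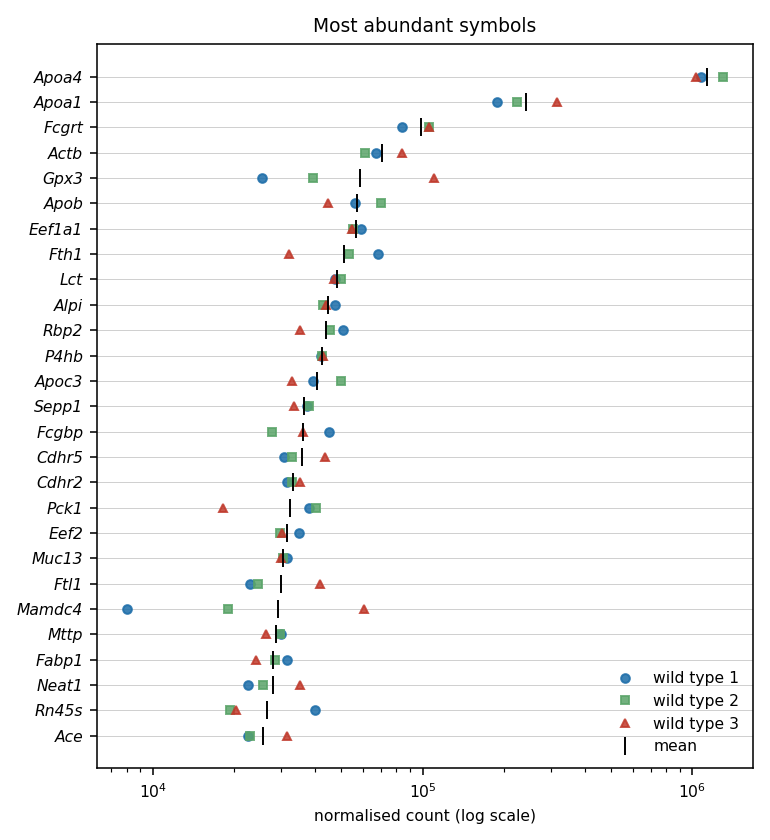
Normalised counts (x axis, log scale) of 27 of the 30 symbols with the highest mean, 1 row each, with a marker for each wild type library and a bar at the mean. Apoa4 stands at 1029973 or more in every library, and Mamdc4 and Gpx3 spread widest, from 8009 to 60479 and from 25504 to 110592.

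Longer transcripts give more reads, so levels between genes were compared per kb of exon. On this scale Apoa4 had 626215 ± 80353 normalised counts per kb (SD, n = 3) and made up 13.3% ± 1.96 of the summed values of all genes. Apoa1 followed with 196220 ± 53332 per kb and Fabp1 with 50596 ± 6492, then Fcgrt with 46748 ± 5942, Rbp2 with 45489 ± 8383 and Apoc3, an apolipoprotein that inhibits lipoprotein lipase, with 40166 ± 8584. From Fabp1 to Apoc3 these genes lay within the SDs of their neighbours, so their order is not set by these libraries. The 10 highest were completed by Prap1, a lipid-binding secreted protein of the intestine, at 37783 ± 11355, Gpx3 at 32252 ± 25186, Actb at 26442 ± 4461 and Fabp2 at 26342 ± 3955 per kb. Actb encodes cytoplasmic beta-actin. Apob, the structural protein of the chylomicron with a very long transcript, was the sixth most abundant symbol by normalised count and had 4088 ± 908.1 per kb. Of the 100 symbols highest per kb, 63 were also among the 100 highest by normalised count. The median exon length was 1822 bases in the per-kb group and 3290 in the other, against 4032 over all symbols with a mean of at least 1, and 19 of the per-kb group were cytosolic ribosomal proteins.

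Promoters of some of the abundant genes are shown because the ranking did not use sequence. The genes were chosen by hand, so they do not stand for all leading genes. Each line gives the 80 bases before the annotated start, 5′ to 3′ on the strand of the gene, from the RefSeq promoter table of build GRCm38.p6. Capitals mark a match, on either strand, to 1 of 6 motifs: TATAAA (the core of a TATA box), AGATAA (read by GATA factors), CAAAGTCCA (HNF4), GTTAAT (HNF1), GCAATAAA (CDX2) and GGGCGG (SP1). The stretches lie at chr9:46240764-46240843 for Apoa4, chr9:46228550-46228629 for Apoa1, chr6:71199799-71199878 for Fabp1, chr3:122894992-122895071 for Fabp2, chr9:98490457-98490536 for Rbp2, chr1:128328319-128328398 on the minus strand for Lct, chr1:87101607-87101686 on the minus strand for Alpi, chr7:45103823-45103902 on the minus strand for Fcgrt and chr7:140093316-140093395 for Prap1. The other genes lie on the plus strand.
Apoa4: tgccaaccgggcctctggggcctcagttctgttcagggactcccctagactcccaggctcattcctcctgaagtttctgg
Apoa1: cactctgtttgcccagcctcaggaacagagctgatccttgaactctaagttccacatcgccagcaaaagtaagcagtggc
Fabp1: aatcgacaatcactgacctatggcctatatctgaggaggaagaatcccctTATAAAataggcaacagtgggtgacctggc
Fabp2: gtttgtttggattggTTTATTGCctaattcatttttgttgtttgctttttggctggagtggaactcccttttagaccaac
Rbp2: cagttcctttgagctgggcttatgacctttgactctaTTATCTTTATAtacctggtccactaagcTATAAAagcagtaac
Lct: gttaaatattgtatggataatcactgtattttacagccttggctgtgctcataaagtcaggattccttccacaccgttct
Alpi: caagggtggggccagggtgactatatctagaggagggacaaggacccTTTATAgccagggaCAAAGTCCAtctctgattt
Fcgrt: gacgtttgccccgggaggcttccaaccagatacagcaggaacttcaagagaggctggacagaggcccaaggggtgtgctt
Prap1: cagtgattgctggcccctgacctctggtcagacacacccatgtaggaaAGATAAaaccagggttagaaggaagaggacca

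Fabp1 held TATAAA on its own strand, beginning 30 bases before the annotated start. Rbp2 held TATAAA on both strands, with an AGATAA match on the other strand that overlaps 1 of them, and Alpi held TATAAA on the other strand and CAAAGTCCA on its own. Apoa4, Apoa1, Lct and Fcgrt held none of the 6 letter runs in these 80 bases, which says nothing of the factors themselves. Gpx3 and Lgmn were also looked at but are not printed. Gpx3 held GGGCGG on its own strand, and Lgmn held TATAAA on the other strand in 1 of 2 promoters. Over the full 300-base windows, from 250 bases before to 50 after the start, 22 of 92 promoters of the 100 most abundant symbols held TATAAA on either strand (23.9%), from 76 symbols with an entry. Among all 32851 promoters in the table the share was 13.6%, among the ranks after these down to 1000 it was 7.54%, and among symbols listed at 0 in every library it was 27.6%. It was 15.9% for the 200 most abundant symbols. On the gene's own strand and beginning 40 to 20 bases before the start, where a TATA box lies, TATAAA stood in 2 of the 92 (2.17%), in 1.99% of all promoters and in 3.31% among the ranks after the 100 down to 1000. GGGCGG stood in 45.7% of the windows of the 100 most abundant, in 63.5% among the ranks after these down to 1000 and in 35.7% of all. The median number of CpG pairs per window was 12 in the 100 most abundant, 21 among the ranks after these down to 1000 and 2 in symbols listed at 0. AGATAA stood in 12% of the windows of the 100 most abundant and in 11.2% of all, GTTAAT in 8.70% and 7.10%, CAAAGTCCA in 2.17% and 0.475%, and GCAATAAA in 2.17% and 0.974%. Several promoters can belong to 1 gene, so these shares are descriptions of windows and not of independent genes.

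Of 65 gene lists, covering 1195 different symbols in the files and 37.3%, 37.8% and 37.3% of the totals, 8 held at least 1% of the total normalised count. These were the chylomicron list with 11.4% ± 1.22, the suckling-type enterocyte list with 9.79% ± 1.15, cytosolic ribosomal proteins with 3.07% ± 0.189, the brush border cytoskeleton with 1.76% ± 0.173, lysosomal proteins with 1.5% ± 0.790, the nuclear-encoded respiratory chain with 1.31% ± 0.141, proximal intestine with 1.29% ± 0.179 and translation factors with 1.18% ± 0.0522 (SD, n = 3 each). A gene can stand in more than 1 list, and Apoa4 accounted for most of the first and the second. In bulk tissue, fewer cells of a type and less RNA per cell cannot be told apart.

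**Figure D3:**
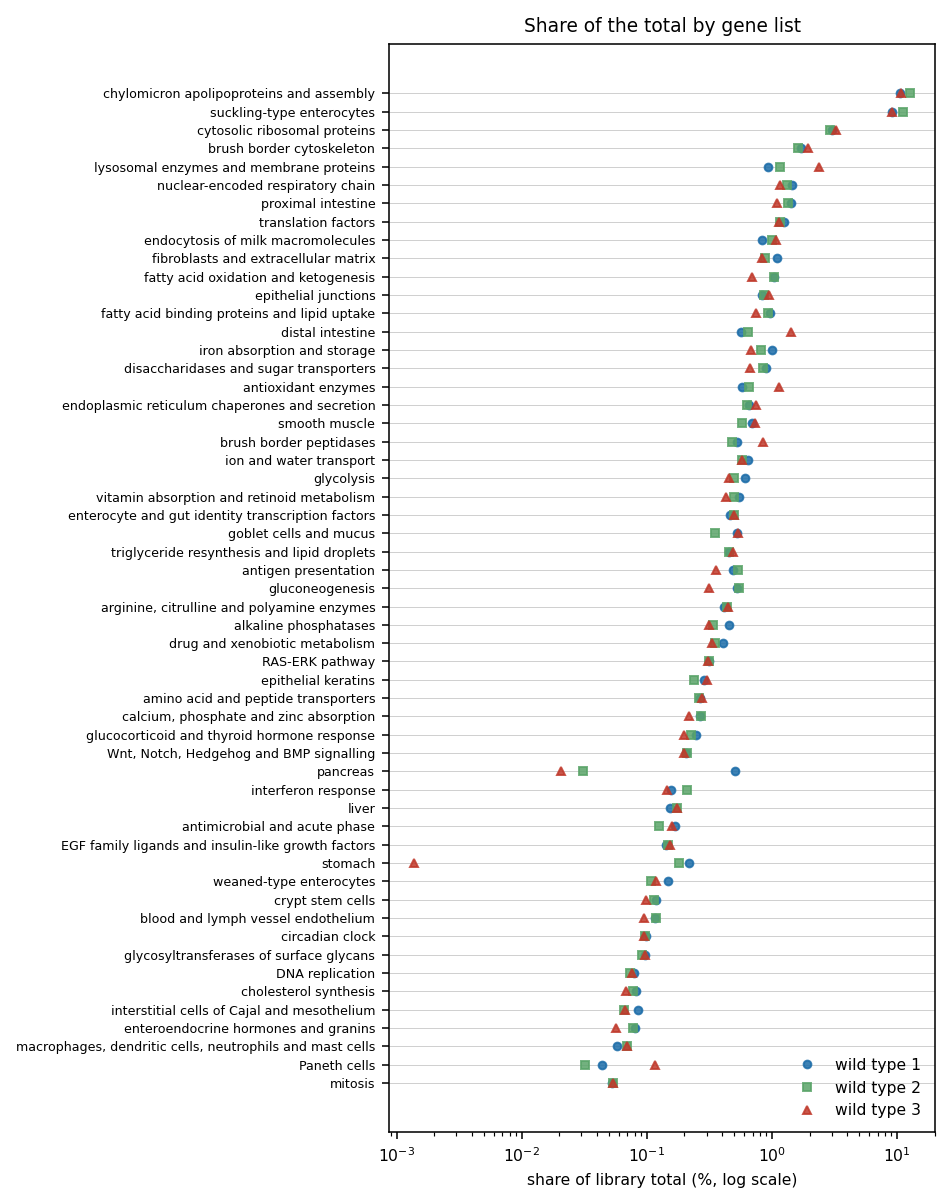
Share of each library's total normalised count (x axis, percent, log scale) held by the summed members of each gene list with a mean share above 0.05%, with 1 marker per wild type library. The pancreas list runs from 0.0206% to 0.505% and the stomach list from 0.00137% to 0.219%, while the markers of most other lists lie close together.

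As a background for spread, 574 of the 10700 symbols with a mean of at least 100 (5.36%) had a highest library at least 2 times the lowest, and the median CV of these symbols was 9.87%. Wild type 3 was the highest library in 290 of them (2.71% of the 10700) and the lowest in 264 (2.47%). Wild type 1 was highest in 200 (1.87%) and lowest in 228 (2.13%), and wild type 2 in 84 (0.785%) and 82 (0.766%). By any margin, wild type 3 was highest in 40.8% of the 10700 and lowest in 37.5%, wild type 2 in 26.2% and 32%, and wild type 1 in 33.0% and 30.5%. Without wild type 3 the share of symbols differing 2 times was 0.591% and the median CV 6.15%. Counts of list members differing 2 times, given further on, are to be read against the 5.36% of all symbols tested. A member high in a single library can pass the cut on the mean through that library, and its direction is then partly set by the cut.

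Genes of fat absorption were abundant. The chylomicron list held 10.6%, 12.8% and 10.7% of the totals, and none of its 11 members with a mean of at least 100 differed 2 times between libraries. Their median CV was 19.1%, against 9.87% for all symbols tested and 16.0% for symbols with a mean of 10000 or more, where the leading members lie. Apob had 56244, 69960 and 44684 normalised counts, Apoc3 had 39335, 50046 and 32805, and P4hb, a protein disulfide isomerase that is also a subunit of the lipid transfer complex, had 42052, 42252 and 42714. Mttp, the transfer protein that loads lipid onto apolipoprotein B, had 29876, 29613 and 26284. Apob and Apoc3 were highest in wild type 2 and lowest in wild type 3, as was Apoa4, while Apoa1 was highest in wild type 3. The ratio of Apoa4 to Apoa1 per kb was 3.90, 3.97 and 2.22, and that of Apoa4 to Apob 147, 143 and 177. The list of fatty acid binding and lipid uptake held 0.971%, 0.928% and 0.743%, and 2 of its 13 members with a mean of at least 100 differed 2 times. Wild type 3 was lowest in 11 of the 13 (37.5% of all symbols tested), and the median CV was 18.3%. The ratio of Fabp1 to Fabp2 per kb was 1.92, 1.86 and 2.00. Acsl5, which activates fatty acids, had 20039, 17875 and 14988, and Npc1l1, the cholesterol uptake protein, 9507, 10295 and 12413. Scarb1, a scavenger receptor for lipoproteins, had the widest range in this list at 1340, 1066 and 438. Dgat2, which makes triglyceride, led the resynthesis list with 22319, 21998 and 25082. The lipid droplet coat genes Plin3 and Plin2 had 10060, 10745 and 14086, and 8684, 9394 and 8746, and the list's median CV was 10.1%. Of its 12 members with a mean of at least 100, 1 differed 2 times, Agpat9 with 414, 490 and 1027.

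Fatty acid oxidation and ketogenesis held 1.04%, 1.04% and 0.697% of the totals, and 21 of 25 members were lowest in wild type 3 (37.5% of all symbols tested), with 4 differing 2 times. Hadh, an enzyme of beta-oxidation, had 15137, 14884 and 9944, and Acaa2, which carries out its last step, 13227, 11516 and 7748. Cyp4a10, a fatty acid hydroxylase, had 1345, 1184 and 44, the widest range of the list. Cholesterol synthesis was a small list at 0.0817%, 0.0775% and 0.0678%. Among its leading members was Insig1, a sterol-regulated brake on the pathway, with 2017, 1583 and 876. Hmgcs1, an early enzyme of the pathway, had 819, 757 and 689.

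Among sugar-handling genes lactase was far above sucrase-isomaltase. Lct had a CV of 3.37% around a mean of 48086 normalised counts. Sis, which encodes sucrase-isomaltase, had 2383, 1331 and 561, and Treh, the trehalase, 2465, 1301 and 344. Both were highest in wild type 1 and lowest in wild type 3. Per kb the ratio of Lct to Sis was 23.2, 43.7 and 97.2, so lactase was above sucrase-isomaltase in each library, by a ratio that ran opposite to Sis. Slc5a1, the sodium-glucose cotransporter, had 10502, 10323 and 8022. Galk1, which phosphorylates galactose released from lactose, had 2878, 3199 and 4790, highest in wild type 3. Of the 14 members of this list 5 differed 2 times and in all 5 wild type 3 was lowest. Pck1, the entry enzyme of gluconeogenesis, had 37852, 40391 and 18288, Gpd1 had 12405, 10244 and 6793, and Fbp1, a later enzyme of the same path, 7637, 9382 and 8117. Gpd1 encodes glycerol phosphate dehydrogenase. In the glycolysis list Gapdh led with 21916, 17162 and 16300, and none of 14 members differed 2 times. Eno1 was listed at 0 in every library, which may be a loss in the authors' counting and not a level, since the genes beside it in the pathway were abundant.

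Genes of protein uptake and degradation differed widely between libraries. The lysosomal list held 0.932%, 1.17% and 2.40% of the totals, and 15 of its 30 members differed 2 times between libraries, all with wild type 3 highest. Its mean share over the 3 libraries was 1.5%, and 1.05% when wild type 3 was left out. Of all symbols tested, 5.36% differed 2 times and 2.71% did so with wild type 3 highest. Lgmn, the asparagine-specific protease legumain, had 4053, 6163 and 53511 normalised counts. Ctsl, the cysteine protease cathepsin L, had 8205, 15841 and 47506. Both were lowest in wild type 1 and highest in wild type 3, and the ratio of highest to lowest was 13.2 for Lgmn. Ctsb, cathepsin B, had a narrower range at 18806, 21504 and 28125. The uptake list held 0.835%, 1.01% and 1.07%, mostly Fcgrt. Amn, the amnionless protein that anchors the uptake receptor cubilin, had 3398, 4041 and 14137, and Cubn, cubilin itself, 4120, 4529 and 6234. Lrp2, the related receptor megalin, had 7, 5 and 210. Pigr, the receptor that secretes antibodies of the IgA class, went the other way at 10863, 7299 and 4799. Mamdc4, an endosomal glycoprotein of suckling enterocytes, had 8009, 18980 and 60479, and Mfi2, the iron-binding melanotransferrin, 244, 1766 and 64822. The Mfi2 range, 266 times from wild type 1 to wild type 3, put it among the 10 largest CVs of symbols with a mean of at least 1000.

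The brush border peptidases, which cut peptides at the cell surface, differed 2 times in 9 of 15 members, against 5.36% of all symbols tested. Of the 9, wild type 3 was highest in 5 and lowest in 4. Naaladl1, a peptidase of the ileum, had 174, 544 and 20592, while Mme, neprilysin, had 3121, 2927 and 370. Ace, which is known from the kidney and lung for making angiotensin II, had 22471, 22870 and 31418, and Anpep, aminopeptidase N, 19184, 14680 and 15773. Tmprss15, the enteropeptidase that activates trypsin in the duodenum, had 438, 161 and 0. Amino acid and peptide transporters as a list held 0.265%, 0.263% and 0.278%, with 1 of 15 members differing 2 times. The transporter subunit gene Slc3a2 had 4832, 4944 and 5553 and Slc6a19, the neutral amino acid transporter, 4213, 4572 and 4846. Of enzymes making ornithine, citrulline and arginine, Oat had 20868, 23266 and 23919, Cps1 had 16097, 15950 and 17590 and Aldh18a1 had 11833, 12233 and 9855. Arg2, an arginase that is low before weaning, had 560, 273 and 44. Ass1, which acts between citrulline and arginine, was listed at 0, 0 and 1. A gene that the authors' counting could not separate from near-identical copies would also be listed so.

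Iron genes held 1.00%, 0.822% and 0.679%. Fth1, the ferritin heavy chain, had 68171, 53518 and 31941, and Ftl1, the light chain, 23007, 24633 and 41745. The chains ran in opposite order across libraries, with a ratio of Fth1 to Ftl1 per kb of 1.14, 0.839 and 0.296. Both genes have near-identical copies, so their levels are uncertain. Slc11a2, the iron importer, had 16646, 8765 and 5046, Slc40a1, the exporter ferroportin, 10016, 9624 and 6181, and Cybrd1, the duodenal ferric reductase, 6634, 3087 and 402. All 3 were highest in wild type 1 and lowest in wild type 3. The zinc-binding metallothionein genes Mt1 and Mt2 had 12686, 11177 and 4923, and 5757, 5940 and 2236. Slc34a2, a phosphate transporter, had 4391, 6294 and 9010 and Slc39a4, the zinc importer, 2873, 3769 and 7555, both highest in wild type 3. Trpv6, the calcium channel, had 366, 146 and 6. Tcn2, which carries vitamin B12 in blood, had 5642, 6108 and 9750. The ion transport list held 0.642%, 0.573% and 0.573%. Of its 17 members with a mean of at least 100, 6 differed 2 times (5.36% of all symbols tested). Wild type 3 was lowest in 5 of the 6 and highest in 1 (2.47% and 2.71% of all symbols tested). Guca2a, the hormone guanylin, went against most of the 6 and had the widest range of the list at 330, 288 and 6206. Guca2b, uroguanylin, had 5077, 5350 and 8742.

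In the cytoskeleton and junction lists of the epithelial surface, 2-fold differences were about as frequent as among all symbols tested (5.36%). Of members with a mean of at least 100, 1 of 23 junction genes and 1 of 5 keratins differed 2 times. The brush border cytoskeleton held 1.71%, 1.62% and 1.95%, and 1 of 18 members differed 2 times. Actb had 67098, 61205 and 84212, and the cadherins that link neighbouring microvilli had 30709, 32906 and 43544 for Cdhr5 and 31346, 32747 and 35230 for Cdhr2. Muc13, a membrane mucin, had 31339, 30332 and 29880. The junction list held 0.834%, 0.872% and 0.955%, led by Epcam, an epithelial adhesion molecule, with 20039, 20965 and 28736 and by Ctnnb1, beta-catenin, with 16274, 18440 and 20613. Krt8, a keratin of simple epithelia, had 19893, 16993 and 24339. Akp3, another intestinal alkaline phosphatase, had 14863, 3293 and 16 and so differed far more than Alpi. The ratio of Alpi to Akp3 per kb was 2.87, 11.6 and 2466, while Alpi itself had a CV of 5.61%.

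Among secretory cell lists the goblet list was the largest, with 0.527%, 0.354% and 0.538%. Fcgbp, a mucus protein, had 44821, 27719 and 35899 and was its most abundant member in each library. Muc2, the gel-forming mucin, had 5714, 3507 and 7683, and Tff3, a trefoil peptide, 6236, 5318 and 10971, both lowest in wild type 2 and highest in wild type 3. Retnlb was listed at 0 throughout. The Paneth list held 0.0434%, 0.0321% and 0.117%, and its mean of 0.0642% became 0.0378% without wild type 3. Of its 13 members with a mean of at least 100, 9 differed 2 times, 8 with wild type 3 highest, against 5.36% and 2.71% of all symbols tested. Lyz1, the Paneth lysozyme, had 1665, 993 and 5722, and Itln1, a lectin, 1366, 971 and 2923. Defa22, an alpha-defensin, had 34, 50 and 1986. Alpha-defensin genes are near-identical, so each count is uncertain. Mmp7, the protease that activates them, had 61, 52 and 227 and Mptx2 had 76, 78 and 108. Enteroendocrine genes held 0.0809%, 0.0768% and 0.0567%. The granins Chgb and Chga had 2958, 2981 and 1697, and 1824, 1724 and 1186. Gip and Cck, hormones of the proximal gut, had 1809, 1606 and 873, and 939, 821 and 358. Nts, neurotensin of the distal gut, had 128, 130 and 744 and Tph1, which starts serotonin synthesis, 242, 278 and 55. Tuft cell genes held 0.0190%, 0.0176% and 0.0113%, with all 8 members of a mean of at least 100 lowest in wild type 3 (37.5% of all symbols tested) and 3 of them differing 2 times. Dclk1 had 161, 132 and 104, Trpm5 had 143, 92 and 28 and Pou2f3 had 28, 17 and 7.

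The lists of crypt and renewal genes held small shares of the totals. The stem cell list held 0.118%, 0.114% and 0.0982%. Of its 17 members with a mean of at least 100, 2 differed 2 times (5.36% of all symbols tested), and the median CV was 13.1%. Olfm4 had 3896, 3888 and 4257, Lgr5, the receptor that marks crypt base stem cells, 238, 192 and 215, and Ascl2, a transcription factor of the same cells, 140, 85 and 131. DNA replication held 0.0791%, 0.0736% and 0.0755% and mitosis 0.0522%, 0.0532% and 0.0534%. In these lists 0 of 19 and 0 of 20 members with a mean of at least 100 differed 2 times. Pcna, the replication clamp, had 1715, 1516 and 1477, and Mki67, the proliferation marker, 1387, 1395 and 1358.

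Transcription factors of gut identity held 0.464%, 0.501% and 0.501%. Creb3l3, a regulator of lipid genes, led with 11319, 13938 and 14684, followed by Hnf4a, a regulator of enterocyte genes, with 8780, 8977 and 9377. Maf and Elf3 had 4103, 4724 and 4554, and 4488, 4293 and 3809. The homeobox genes Cdx2 and Cdx1 kept a ratio per kb of 1.09, 1.08 and 1.06 in the 3 libraries although Cdx2 had 2241, 2359 and 3473. Pdx1, a duodenal factor, had 453, 343 and 3, the widest range of the list. Of 31 members with a mean of at least 100, 4 differed 2 times. The RAS-ERK list, a kinase cascade that carries growth factor signals, held 0.313%, 0.312% and 0.308%. Of its 32 members with a mean of at least 100, 2 differed 2 times, against 5.36% of all symbols tested. Erbb3, a receptor of the EGF family, had 5338, 5485 and 4064, Erbb2 had 3704, 3994 and 3099, and the kinase gene Map2k2 4094, 3748 and 4477. Mapk3, which encodes the kinase ERK1, had 3142, 2788 and 2004. The ratio of Map2k2 to Map2k1 per kb was 2.17, 1.84 and 1.77. Fos, an immediate early target of the pathway, had 870, 1112 and 2050. In the Wnt, Notch, Hedgehog and BMP list Lrp5, a Wnt coreceptor, had 2570, 2173 and 2030 and Ihh, the hedgehog ligand of villus epithelium, 1835, 1842 and 1747. The ratio of Ihh to Shh per kb was 81.6, 78.2 and 126. Igf2r, a receptor that clears insulin-like growth factor 2, had 4217, 5034 and 6889. Hsp90ab1, a chaperone of steroid receptors, had 13901, 11115 and 11299 and Sgk1, a kinase induced by glucocorticoids, 3213, 3506 and 2190.

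Of members with a mean of at least 100, none differed 2 times in the ribosomal, translation factor, respiratory chain or endoplasmic reticulum chaperone lists. Cytosolic ribosomal proteins held 3.04%, 2.89% and 3.26%, with a median CV of 7.62% and 0 of 76 members with a mean of at least 100 differing 2 times. Wild type 3 was the highest library in 70 of the 76, against 40.8% of all symbols tested. Rplp0 had 13755, 12887 and 14988, and Rplp1, highest of the list per kb, 12212, 11524 and 14541. Of 80 members in the files 4 stood far below the rest: Rpl34 had 46, 52 and 37, Rps27 had 17, 26 and 16, Rpl30 had 3, 4 and 2, and Rpl26 was listed at 0. These 4 were singled out after their values were seen. Ribosomal protein genes have many near-identical pseudogenes, so such values may not be levels of the transcripts. Translation factors had a median CV of 7.0%, with Eef1a1, the elongation factor that brings transfer RNA to the ribosome, at 59217, 55420 and 54695 and Eef2 at 34797, 29669 and 30192. The nuclear-encoded respiratory chain held 1.45%, 1.31% and 1.16%, and 39 of 50 members were lowest in wild type 3 (37.5% of all symbols tested), none by 2 times. Atp5b, a subunit of ATP synthase, had 24253, 22615 and 19586. Mitochondrially encoded genes were not analysed here, and the totals behind every share leave them out. Chaperones of the endoplasmic reticulum held 0.653%, 0.638% and 0.749%, with Calr, calreticulin, at 7537, 7275 and 13170 and Hspa5 at 6700, 6067 and 9304. Antioxidant enzymes held 0.580%, 0.657% and 1.15%, a mean of 0.796% that was 0.619% without wild type 3, and Gpx3 made up most of the difference. Cat, catalase, had 8046, 8633 and 7777.

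Of the defence lists, antigen presentation held the largest share. It had 0.490%, 0.532% and 0.358%, and 13 of 14 members with a mean of at least 100 were lowest in wild type 3 (37.5% of all symbols tested), none by 2 times. H2-K1, a class I histocompatibility gene with near-identical copies, had 23827, 26919 and 18191 and B2m, its light chain partner, 16936, 19459 and 10952. The interferon list held 0.156%, 0.208% and 0.146%, and wild type 2 was highest in all 18 members with a mean of at least 100, against 26.2% of all symbols tested. Of these, 3 differed 2 times with wild type 2 highest. Irf1 had 4039, 4771 and 3637, Irf7 had 3813, 4851 and 3547, and Ifit2, an antiviral protein, 1571, 2575 and 712. Ifit1 had 1530, 2140 and 1887. Lypd8, which keeps flagellated bacteria off the epithelium, had 12625, 11430 and 16300, and Reg1, a secreted lectin also made by the pancreas, 6538, 2431 and 81. Reg4 had 1063, 1047 and 716. In drug metabolism Ces2e, a carboxylesterase, had 8383, 7195 and 7407 and Cyp2d26 had 6378, 4633 and 1211. Of the 33 members of that list with a mean of at least 100, 14 differed 2 times, 10 of them with wild type 3 lowest.

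Other cells of the gut wall were present in every library. Smooth muscle held 0.697%, 0.581% and 0.736%, with Myh11, smooth muscle myosin, at 18062, 15126 and 18667, Acta2 at 11418, 9246 and 14666 and Actg2 at 3883, 2824 and 5654. Wild type 2 was the lowest library in 16 of 17 members, against 32% of all symbols tested. Fibroblast and matrix genes held 1.10%, 0.877% and 0.836%, with the fibrillar collagens Col3a1 at 26603, 20507 and 20242 and Col1a1 at 19135, 11627 and 12406, highest in wild type 1. Pdgfra, a fibroblast receptor, was level at 1335, 1383 and 1359. Endothelium held 0.116%, 0.118% and 0.0945%, and its markers Pecam1, Cdh5 and Kdr had 1165, 1434 and 1265, then 1164, 1273 and 1127, then 1074, 1132 and 937. Enteric neurons and glia held 0.0239%, 0.0235% and 0.0318%. Of 10 members with a mean of at least 100, 2 differed 2 times, 1 with wild type 3 highest and 1 with it lowest. Ret, the receptor for glial-derived factors in the enteric nervous system, had 771, 812 and 1975, while the neuronal gene Elavl4 had 38, 30 and 30. Macrophage and other myeloid genes held 0.0582%, 0.0694% and 0.0688%, with C1qa at 840, 1005 and 811, Adgre1 at 214, 276 and 234 and Csf1r at 2024, 2485 and 4436. Of 12 members with a mean of at least 100, wild type 3 was lowest in 7 and highest in 3 (37.5% and 40.8% of all symbols tested). Lymphocyte genes were near the bottom of the range. The B cell list held 0.00374%, 0.00451% and 0.00459%, with Cd79a at 104, 130 and 153 and Ms4a1 at 20, 18 and 25. The T cell list held 0.00733%, 0.00753% and 0.00652%, with Cd3e at 19, 18 and 18, Cd3g at 16, 13 and 13 and Cd8a at 31, 21 and 16. All 10 haemoglobin symbols were listed at 0, although the red cell enzyme gene Alas2 had 45, 46 and 45, so those zeros may not be levels.

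Markers of neighbouring organs differed sharply between libraries. The pancreas list, digestive enzymes of the exocrine pancreas with a few other pancreatic genes, held 0.505%, 0.0307% and 0.0206%. All 13 of its members with a mean of at least 100 differed 2 times and all 13 were highest in wild type 1. Of all symbols tested, 5.36% differed 2 times and 1.87% did so with wild type 1 highest. Members such as Cpa1 and Prss2 passed the cut on the mean through wild type 1, so the direction was partly set by the cut. Ctrb1, a chymotrypsin precursor, had 15714, 1256 and 2309, Pnliprp1 had 9122, 516 and 13, and Cela2a, an elastase, 8766, 443 and 0. Cela1 had 7406, 439 and 161, Cpa1 had 3088, 127 and 0 and Prss2 had 2662, 104 and 0. Without wild type 1 the list's mean share was 0.0256% in place of 0.186%. The stomach list held 0.219%, 0.181% and 0.00137%. All 6 members with a mean of at least 100 were lowest in wild type 3 (37.5% of all symbols tested). Muc6, a gland mucin of the stomach and duodenum, had 14423, 10673 and 124 and Tff2, a trefoil peptide of the same glands, 5612, 5592 and 6. Gkn3 had 4825, 5346 and 46 and Gkn1, gastrokine of the stomach surface, 2687, 1444 and 0. Atp4a, the proton pump of acid-producing stomach cells, had 18, 16 and 10, and the stomach trefoil peptide gene Tff1 had 5, 4 and 0. Whether the transcripts of the stomach list came from stomach or duodenum was not tested. What part transcripts of the pancreas and stomach lists had in the other lists was not tested either. Of liver genes, Cps1 and the alpha-1-antitrypsin gene Serpina1e (2330, 3921 and 3985, with near-identical copies) are also made in the intestine and held most of that list. Ttr had 443, 712 and 1000, while Apoh had 5, 5 and 2 like Alb.

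The position of each sample along the intestine is not given, and regional markers ran with the differences above. The proximal list held 1.43%, 1.35% and 1.09%, and 8 of its 18 members with a mean of at least 100 differed 2 times, all 8 with wild type 3 lowest. The distal list held 0.562%, 0.644% and 1.41%, and 11 of 17 differed 2 times, 10 with wild type 3 highest. The mean share of 0.874% over the 3 libraries became 0.603% when wild type 3 was left out. Of all symbols tested, 5.36% differed 2 times, 2.47% with wild type 3 lowest and 2.71% with it highest. Besides Pdx1 and Tmprss15, the proximal member Onecut2, a duodenal transcription factor, had 1835, 1960 and 200 and Ada, adenosine deaminase, 6229, 2466 and 273. Gata4, a proximal and middle intestinal factor, differed less at 2319, 2216 and 1717. On the distal side, Fgf15, the hormone of the ileum that reports bile acids to the liver, had 5, 13 and 1975 and Slc51a, a bile acid exporter subunit, 2713, 2593 and 5310. Fabp6, the ileal bile acid binding protein, had 1, 1 and 4 and Slc10a2, the ileal bile acid importer, 7, 6 and 1, so these markers of the ileum after weaning were near 0 in every library. The part of regional position in the lysosomal, peptidase, Paneth, iron and oxidation lists was not tested.

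**Figure D4:**
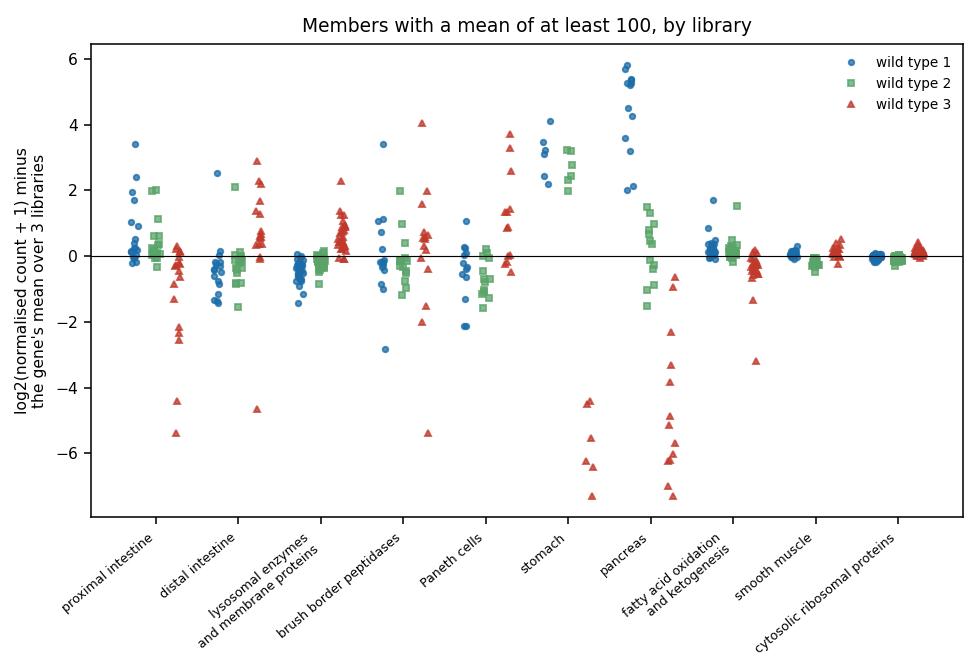
Each point is 1 member, with a mean of at least 100, of the gene list named on the x axis, in 1 wild type library, and the y axis gives log2(normalised count + 1) minus the mean of that value over the 3 libraries. Lysosomal members lie mostly above 0 in wild type 3, stomach members below 0 in wild type 3 and pancreas members above 0 in wild type 1, while cytosolic ribosomal proteins stay close to 0 in all 3.

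Lists of age-dependent enterocyte genes were read beside these. The suckling-type list held 9.11%, 11.1% and 9.14%, most of it Apoa4, Fcgrt and Lct, so these shares say little of the other members. Of its 14 members with a mean of at least 100, 6 differed 2 times (5.36% of all symbols tested). Wild type 3 was highest in 5 of the 6 and lowest in 1 (2.71% and 2.47% of all symbols tested). The weaned-type list held 0.149%, 0.107% and 0.118%, and 9 of 11 differed 2 times, in both directions: Sis, Treh and Arg2 were highest in wild type 1, while Lyz1 and Reg3b, a lectin against bacteria with 187, 37 and 856, were highest in wild type 3. Krt20, a keratin of mature enterocytes, had 5342, 3907 and 3834 and Mgam, maltase-glucoamylase, 3547, 2722 and 2607.

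Spread between libraries depended on abundance. The median CV was 50% for symbols with a mean from 1 to under 10, 20% from 10 to under 100, 9.86% from 100 to under 1000 and 9.68% from 1000 to under 10000. It was 16.0% for the 105 symbols at 10000 or more, where counting error is small. Among the 100 most abundant symbols, 14 differed 2 times between libraries, 10 with wild type 3 highest and 3 with wild type 3 lowest, and 73 stood among the 100 most abundant of each library. The smallest CVs among symbols with a mean of at least 1000 were under 1%. Dazap1, an RNA-binding protein, had 1703, 1695 and 1699, Hnrnpu, a nuclear RNA-binding protein, 5704, 5684 and 5725, and Derl1, which serves protein export from the endoplasmic reticulum, 1683, 1689 and 1673. Srsf2, a splicing factor, had 3794, 3771 and 3754. These are the closest of 2879 symbols. The largest CVs belonged to Xist, Mfi2, Naaladl1 and 7 pancreatic enzyme genes, Cpa1, Cpb1, Cel, Cela2a, Cela3b, Pnliprp1 and Ctrl.

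**Figure D5:**
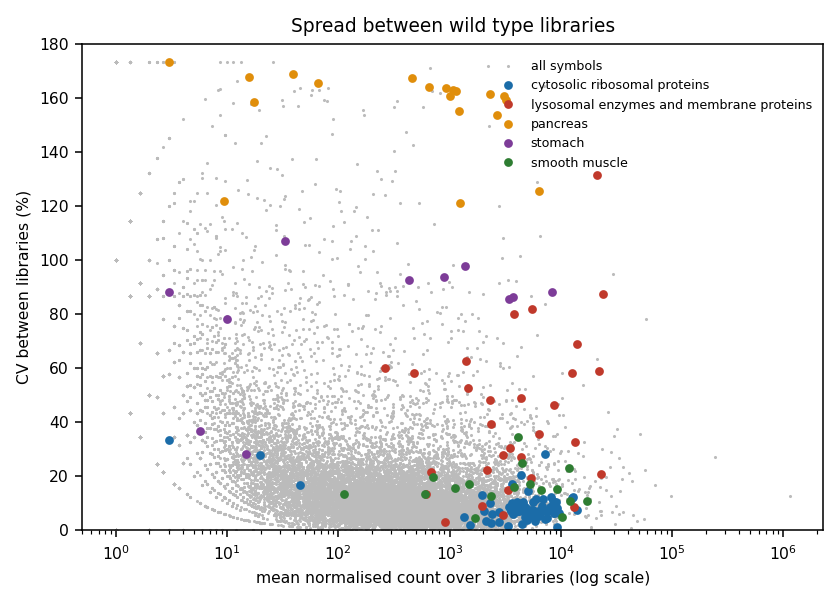
CV over the 3 wild type libraries (y axis, percent) against the mean normalised count (x axis, log scale), with 1 point per symbol with a mean of at least 1 and members of 5 gene lists in colour. Cytosolic ribosomal proteins lie low, with a median of 7.62%, and pancreas members high, with a median of 161% over members with a mean of at least 100.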

How the data were processed

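Per the labels' protocols, RNA of frozen small intestine was isolated with Trizol, and a TruSeq kit was used for polyA RNA libraries. TopHat2 2.1.0, HTSeq 0.6.0, DESeq2 and the build mm10 are named without roles, per the submitters' processing notes. The deposited whole numbers were treated as a score: gaps and doublings among the low values are those of rounded counts after scaling, so they are not raw counts. From the gaps, scaling factors of 1.1775, 1.1190 and 0.8905 were estimated, and no counting intervals were computed from the rounded values.

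Means, SDs, shares, CVs and ratios were computed with Python 3.11.15, pandas 2.3.3 and numpy 2.4.6 on scripts checked on simulated data. Exon length came from the GENCODE annotation of GRCm38, where 23389 symbols matched by name, 605 by an older symbol and 458 not at all (0.580 to 0.742% of the totals). Of all symbols, 27 had been turned into dates. Genes matched by no symbol have no value per kb. The sources used here do not give the strand setting or the treatment of reads with several positions, so overlapping, antisense and near-identical genes could share reads.

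Named genes were the 30 highest by mean, the 10 highest per kb, up to 4 leading members and the widest-ranging member (mean of at least 100) of each list, the 10 largest and 10 smallest CVs (mean of at least 1000) and cell type markers, of which a part is printed; some genes that the rule picked are not reported here. Outside this rule, with values in view, are Ada, Ass1, Cdx1, Cdx2, Cubn, Ddx3y, Eno1, Fabp6, Fos, Gata4, Lrp2, Map2k1, Mapk3, Mme, Onecut2, Retnlb, Shh, Sis, Slc10a2, Tph1 and the 4 low ribosomal protein genes. The members and lists were chosen with earlier results of these data known. Alternatives left out each library, changed the minimum mean, the scaling, the summary and the length, and, added after seeing the data, left out Apoa4 or Rn45s or used the longest transcript.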

Additional observations from a re-analysis of the deposited data

How the results depend on the processing

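The share of the total in the 100 most abundant symbols was 26.3%, 39.6% with values per kb of exon and 19.8% with Apoa4 left out, and 26 to 26.9% when 1 library was left out. The median CV of 9.87% was 11.8% at a minimum mean of 10, and 6.15 to 9.52% when 1 library was left out, lowest without wild type 3. The share of symbols differing 2 times, 5.36%, was 9.63% at a minimum mean of 10 and 6.77% at 1000. It was 3.68%, 4.70% and 0.591% without wild type 1, 2 and 3, where fewer libraries enter a range. Lists holding at least 1% of the total numbered 8, 13 per kb of exon and 13 per kb of the longest transcript, and 8 to 10 when 1 library was left out. TATAAA stood in 23.9% of abundant promoters, in 35.6% of those of the 50 and 15.9% of those of the 200 most abundant symbols, in 21.1% of the 100 highest per kb and in 22.8 to 23.9% when 1 library was left out. Symbols with a mean of at least 1 numbered 17512 to 17676 when 1 library was left out. Rounded, scaled values limit what can be said of symbols under about 10, and 3 libraries limit every SD. No paired analysis was possible because only 1 group was described and the results come from no test.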

Other observations

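Hox genes, which record position along the body axis and were in no list, were looked at after the values were seen. Of 39 Hox symbols 20 had a mean of at least 10. The 12 of paralogue groups 2 to 5 summed to 1181, 1020 and 1154 normalised counts in wild type 1, 2 and 3, and wild type 3 was highest in 6. The 8 of groups 6 to 9 summed to 122, 137 and 453, and all 8 were at least 2 times higher in wild type 3 than in the lowest library. Of all symbols with a mean from 10 to under 100, 21.1% differed 2 times in any direction. Hoxb4 had 134, 124 and 121, while Hoxc6 had 18, 21 and 111, Hoxb6 had 40, 45 and 93 and Hoxc8 had 0, 0 and 40. These are low values, and the stretch of intestine sampled is not given. Hoxc8 passed the cut on the mean only through wild type 3, so its direction was set by the cut.

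Genes annotated as long intergenic non-coding RNA held 0.382%, 0.408% and 0.488% of the totals. Other classes of long non-coding RNA were not summed. Besides Neat1, Malat1, an abundant nuclear RNA, had 13763, 14041 and 10059. The imprinted RNAs Meg3 and H19, which are abundant in fetal tissue, had 1424, 1447 and 1448, and 489, 605 and 545. Igf2, the imprinted growth factor gene beside H19, had 671, 663 and 1206, so it was higher in wild type 3 while H19 was not the highest there. These genes were also named after their values were seen.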
